A study of Mus musculus with 18 samples.

Results

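Immediate early genes and heat shock genes were followed as 40 named members, 32 immediate early and 8 heat shock, matched by gene symbol in a table of 46078 genes. All 40 were found, and all 40 were among the 14714 genes that passed the filter on low counts. RNA was measured by bulk sequencing in 18 libraries of 200 sorted cells each, in 6 groups of 3 libraries, from C57BL/6 mice aged 8 weeks. Type 1 innate lymphoid cells (ILC1s), which are tissue-resident relatives of natural killer (NK) cells, were compared between RARα403 mice and control mice in liver and in spleen, and liver NK cells were compared in the same way. The genotype of the RARα403 mice was Ncr1-Cre with a Rosa26-RARα403 allele, and the control mice carried Ncr1-Cre too. RARα403 is a shortened form of retinoic acid receptor α. It blocks signalling by normal retinoic acid receptors, and Cre, made by cells that use the NKp46 gene Ncr1, turns it on. Every group was gated as NKp46+ NK1.1+ CD3-. ILC1s were further gated as CD49a+, CD49b low and IL-7R+, and NK cells as CD49a- CD49b+. No treatment was named in the labels, and the study's title asks whether retinoic acid receptor activity maintains ILC1s.

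Immediate early genes are transcribed soon after a receptor, growth factor or stress signal reaches a cell, without a need for new protein. They encode transcription factors such as FOS, JUN and EGR1 and feedback regulators such as the DUSP phosphatases, and in lymphocytes they follow antigen or cytokine receptor signalling. Heat shock genes encode chaperones that keep other proteins folded, and heat shock factor 1 raises their transcription when proteins unfold. Both classes are also known to respond when tissue is digested and cells are sorted.

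Libraries held 3452279 to 9038767 counts, so that 3 counts, taken as the floor of detection, were worth 0.332 to 0.869 CPM (counts scaled to library depth), counting error only. Levels below are log2 CPM, on which 0 counts reads as −1.70, unless another scale is named. Ncr1 stood at 10.08 to 11.74 in all 18 libraries. Zfp683, the gene of the ILC1 transcription factor Hobit, stood at 4.46 to 7.89 in the ILC1 libraries and at −1.70 to 1.90 in the NK libraries, as their labels say. Library 1 of the liver NK RARα403 group stood apart: across genes its Pearson r with its own group was 0.630 and 0.636, against 0.773 to 0.921 within all other pairs. The Rosa26 transcript Gt(ROSA)26Sor had 0 to 10 counts in libraries 2 and 3 of the RARα403 groups and 104 to 1260 counts in controls. Library 1 labelled RARα403 had 365 counts of it in spleen ILC1s and lay in the control range in liver ILC1s too. Both were unlike libraries 2 and 3 of that label. They also lay below control library 1 of their population, which had 1260 counts in spleen ILC1s and 903 counts in liver ILC1s. Whether their label is right was not tested. Gm13394, a processed pseudogene outside the Rosa26 locus, had 452 to 1009 counts in libraries 2 and 3 of the RARα403 groups, 19 to 64 counts in all 3 library 1 samples labelled RARα403 and 24 to 64 counts in controls. For library 1 of the liver NK RARα403 group the transcripts disagree, with 0 counts of Gt(ROSA)26Sor and 56 counts of Gm13394. The ILC1 samples are called RARα403-labelled library 1, and differences between the genotypes are also given with libraries 2 and 3 only. Both transcripts were chosen from earlier work on these libraries, after their values had been seen. Whether libraries came from the same mouse is not stated in the labels, so p-values measure the spread between these libraries, part of which may be technical. In bulk RNA, fewer cells of a type and less RNA per cell cannot be told apart.

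**Figure D1:**
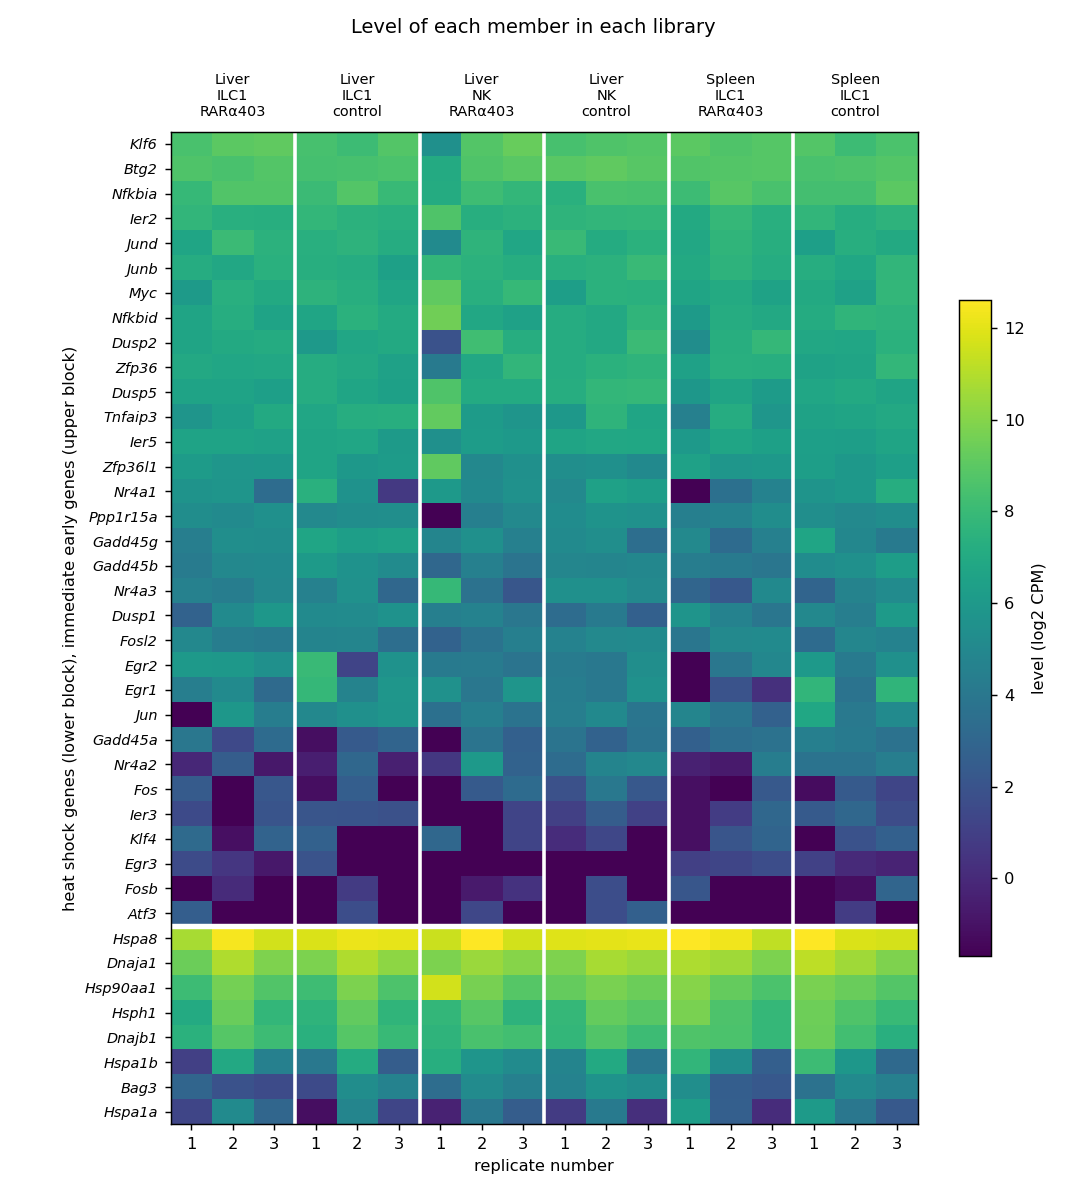
Heat map of the log2 CPM of all 40 members (rows, immediate early above heat shock) in all 18 libraries (columns, RARα403 left of control in each population). The heat shock rows change with library number within a group, and library 1 of the liver NK RARα403 group differs from its neighbours in many rows.

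Levels per length ranged widely over the members. Hspa8, which encodes the constitutive chaperone HSC70, was highest with a median of 946 RPKM (reads set against exon length and library depth) over the 18 libraries. It was followed by Nfkbia, the NF-κB inhibitor, at 199 RPKM and by the chaperone gene Hsp90aa1 at 161 RPKM. Btg2, an antiproliferative gene, had 152 RPKM, Dnaja1, an HSP70 co-chaperone gene, 148 RPKM, and Ier2, an immediate early regulator, 122 RPKM. Hspa8 at 395 to 1470 RPKM did not overlap with Nfkbia at 86.2 to 321 RPKM, but it did with Hsp90aa1 at 69.9 to 824 RPKM, whose highest value lay in the liver NK library that stood apart. The ranges of the genes from Nfkbia to Ier2 overlapped too, so their order did not exceed their spread. At the other end Fos had a median of 1.59 RPKM, Klf4 0.693 RPKM and Egr3 0.0921 RPKM, and the medians of Fosb and Atf3 were 0. Atf3 had no count in 12 libraries, Fosb in 10, Egr3 in 8 and Fos in 4. In all, 19 of 32 immediate early members and 7 of 8 heat shock members had over 3 counts in every library.

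Within a group, the median standard deviation was 1.00 for immediate early members, 0.86 for heat shock members and 1.14 for all genes tested, on the log2 scale. The steadiest members were Ier5 with 0.27, Junb with 0.36 and Ier2 with 0.39. The least steady were Hspa1a with 2.43, Hspa1b with 2.26, Klf4 with 2.26 and Fos with 2.14. Hspa1a and Hspa1b encode the same inducible HSP70 and share 58.8% and 62.3% of their 50-base words, so reads could be split between them and the value of either alone is uncertain. Strand was not given for the counting, so that members with overlapping neighbours on the opposite strand (Jun with Junos, Junb with Prdx2, Dnaja1 with Smu1) may hold reads of both. Hspa8 overlaps small nucleolar RNA genes on its own strand, whose reads strand would not separate.

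The levels of the heat shock genes followed library number inside each organ, in RARα403 and control groups alike. In liver, library 2 held the highest level of 7 of 8 heat shock members in RARα403 ILC1s and of 8 of 8 in control ILC1s, where 32.8% and 29.2% of all genes tested were highest. It held 6 of 8 in RARα403 NK cells and 7 of 8 in control NK cells, against 32.3% and 31.2% of all genes. In spleen the highest library was library 1, for 8 of 8 members in RARα403 ILC1s and 7 of 8 in control ILC1s, against 38.5% and 37.7% of all genes. Library 3 was lowest in spleen for 8 and 7 of 8 members, against 27.8% and 28.0% of all genes. This grouping by library number was chosen after the levels had been seen.

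Shown are promoters of the 5 heat shock members found to hold the inverted repeat that heat shock factor is known to bind. Of these, Hspa1a, Hspa1b, Hsph1 and Dnaja1 followed library number, and Bag3 is described below for its differences between genotypes. Dnajb1 followed library number too, but its windows held no such repeat and are not shown. The sequences are RefSeq windows of GRCm38.p6, 250 bases before to 50 bases after the gene's start, 5′ to 3′ on the gene's strand, and capitals mark each GAANNTTC or TTCNNGAA. They lie at chr17:34972107-34972406 (minus strand) for Hspa1a, chr17:34959189-34959488 (minus) for Hspa1b, chr5:149636266-149636565 (minus) for Hsph1, chr4:40722218-40722517 (plus) for Dnaja1 and chr7:128523333-128523632 (plus) for Bag3.
Hspa1a: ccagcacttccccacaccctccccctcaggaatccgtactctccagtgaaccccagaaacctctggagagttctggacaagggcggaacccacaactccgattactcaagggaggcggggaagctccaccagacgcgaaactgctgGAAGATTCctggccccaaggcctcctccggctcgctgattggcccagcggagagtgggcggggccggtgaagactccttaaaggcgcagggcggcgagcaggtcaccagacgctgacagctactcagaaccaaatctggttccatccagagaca
Hspa1b: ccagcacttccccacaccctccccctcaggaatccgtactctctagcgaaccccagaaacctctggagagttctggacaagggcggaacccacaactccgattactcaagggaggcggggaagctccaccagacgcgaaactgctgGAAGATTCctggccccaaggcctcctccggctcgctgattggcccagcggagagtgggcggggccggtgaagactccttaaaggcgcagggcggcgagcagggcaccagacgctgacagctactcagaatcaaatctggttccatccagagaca
Hsph1: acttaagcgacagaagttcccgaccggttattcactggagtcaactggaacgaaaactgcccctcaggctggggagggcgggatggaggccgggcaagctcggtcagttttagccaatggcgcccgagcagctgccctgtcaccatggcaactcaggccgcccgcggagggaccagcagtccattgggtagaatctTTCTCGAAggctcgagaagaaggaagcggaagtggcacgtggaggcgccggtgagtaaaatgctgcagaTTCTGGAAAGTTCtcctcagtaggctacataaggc
Dnaja1: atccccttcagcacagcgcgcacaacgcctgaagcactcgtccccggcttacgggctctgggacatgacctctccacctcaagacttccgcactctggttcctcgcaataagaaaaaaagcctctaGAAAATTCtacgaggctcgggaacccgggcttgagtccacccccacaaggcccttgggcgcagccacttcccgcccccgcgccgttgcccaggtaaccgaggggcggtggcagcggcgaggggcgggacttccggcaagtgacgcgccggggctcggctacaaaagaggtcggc
Bag3: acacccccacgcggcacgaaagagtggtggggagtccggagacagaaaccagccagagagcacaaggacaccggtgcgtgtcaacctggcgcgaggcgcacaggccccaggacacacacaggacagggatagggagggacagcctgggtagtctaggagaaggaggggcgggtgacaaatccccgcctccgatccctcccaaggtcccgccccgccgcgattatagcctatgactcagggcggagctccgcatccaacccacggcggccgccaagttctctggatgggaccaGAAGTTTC
The Hspa1a and Hspa1b windows were identical at 296 of 300 bases, and in both the match began 104 bases before the start. Dnaja1 had it 124 bases before the start in the window shown and in neither of its other 2 windows, Bag3 42 bases after it, and Hsph1 at 3 places, 54 bases before and 15 and 20 bases after. Searched on both strands with overlaps allowed, 5 of 6 heat shock members with a window held a match in at least 1 of their windows (Dnajb1 did not), as did 4 of 28 immediate early members (Egr2, Fosl2, Jun and Nfkbid) and 4587 of 27025 genes. Hspa8, Hsp90aa1, Egr1, Egr3, Ier2 and Myc were not among the windows used. A match describes these letters and is no measurement of binding.

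Hsph1, which encodes the HSP110 exchange factor of HSP70, showed the library pattern in every group. Its log2 CPM was 7.06, 9.32 and 7.79 in libraries 1, 2 and 3 of RARα403 liver ILC1s, against 7.59, 9.19 and 7.65 in control liver ILC1s. In liver NK cells it was 7.80, 8.89 and 7.55 in the RARα403 group, against 7.83, 9.23 and 8.89 in the control group. In spleen ILC1s it was 9.73, 8.62 and 7.83 in the RARα403 group, against 9.44, 8.68 and 7.97 in the control group. Library 2 was therefore highest in every liver group and library 1 in both spleen groups, and within each population the genotypes overlapped.

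Dnaja1 also had its highest level in library 2 of every liver group and in library 1 of both spleen groups. It stood at 9.41, 10.92 and 9.84 in RARα403 liver ILC1s, against 9.81, 10.92 and 10.18 in control liver ILC1s. Its levels in liver NK cells were 9.82, 10.45 and 10 in the RARα403 group, against 9.84, 10.74 and 10.49 in the control group. In spleen it stood at 10.85, 10.60 and 9.80 in the RARα403 group, against 11.19, 10.58 and 9.87 in the control group. Dnajb1, the HSP40 gene that heat shock induces, had 7.44, 8.87 and 8.09 in RARα403 liver ILC1s, against 7.38, 8.87 and 7.97 in control liver ILC1s. Its spleen values were 8.69, 8.56 and 7.82 in RARα403 ILC1s, against 9.40, 8.30 and 7.33 in control ILC1s, again with library 1 highest and library 3 lowest.

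The inducible HSP70 genes had the widest swings. Hspa1a had 1.31, 5.16 and 3.01 in RARα403 liver ILC1s, against −1.17, 4.81 and 1.31 in control liver ILC1s. In liver NK cells it had −0.33, 4.02 and 2.54 in the RARα403 group, against 0.77, 4.21 and 0.25 in the control group. In spleen it had 6.28, 2.63 and 0.12 in the RARα403 group, against 6.09, 3.99 and 2.29 in the control group. Library 2 of each liver group and library 1 of each spleen group was the highest of its group, and the genotypes overlapped in each population. Hspa1b had 1.01, 6.92 and 4.56 in RARα403 liver ILC1s, against 4.03, 7.11 and 2.52 in control liver ILC1s. Hspa1b in liver NK cells had 7.27, 5.79 and 5.22 in the RARα403 group, against 4.75, 6.99 and 3.92 in the control group, so that library 1 of the RARα403 group, which stood apart, was an exception. Its spleen values were 7.75, 5.33 and 2.62 in the RARα403 group, against 8.14, 5.89 and 3.19 in the control group.

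Hspa8 and Hsp90aa1 moved less than these HSP70 genes, with standard deviations within groups of 0.56 and 0.83. Hspa8 had 10.73, 12.41 and 11.63 in RARα403 liver ILC1s, against 11.81, 12.20 and 12.07 in control liver ILC1s. Hspa8 in liver NK cells had 11.47, 12.57 and 11.63 in the RARα403 group, against 11.91, 12.06 and 12.12 in the control group. In spleen it had 12.62, 12.29 and 11.25 in the RARα403 group, against 12.58, 11.82 and 11.69 in the control group. Library 2 was highest in the liver groups except control NK cells, where library 3 lay slightly above it, and library 1 was highest in both spleen groups. Hsp90aa1, the inducible HSP90 gene, had 8.10, 9.61 and 8.72 in RARα403 liver ILC1s, against 8.19, 9.81 and 8.63 in control liver ILC1s. Hsp90aa1 in liver NK cells had 11.66, 9.69 and 8.87 in the RARα403 group, against 9.22, 9.75 and 9.38 in the control group, and the 11.66 of the library that stood apart was its highest value. In spleen it had 10, 9.24 and 8.55 in the RARα403 group, against 9.72, 9.36 and 8.79 in the control group.

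**Figure D2:**
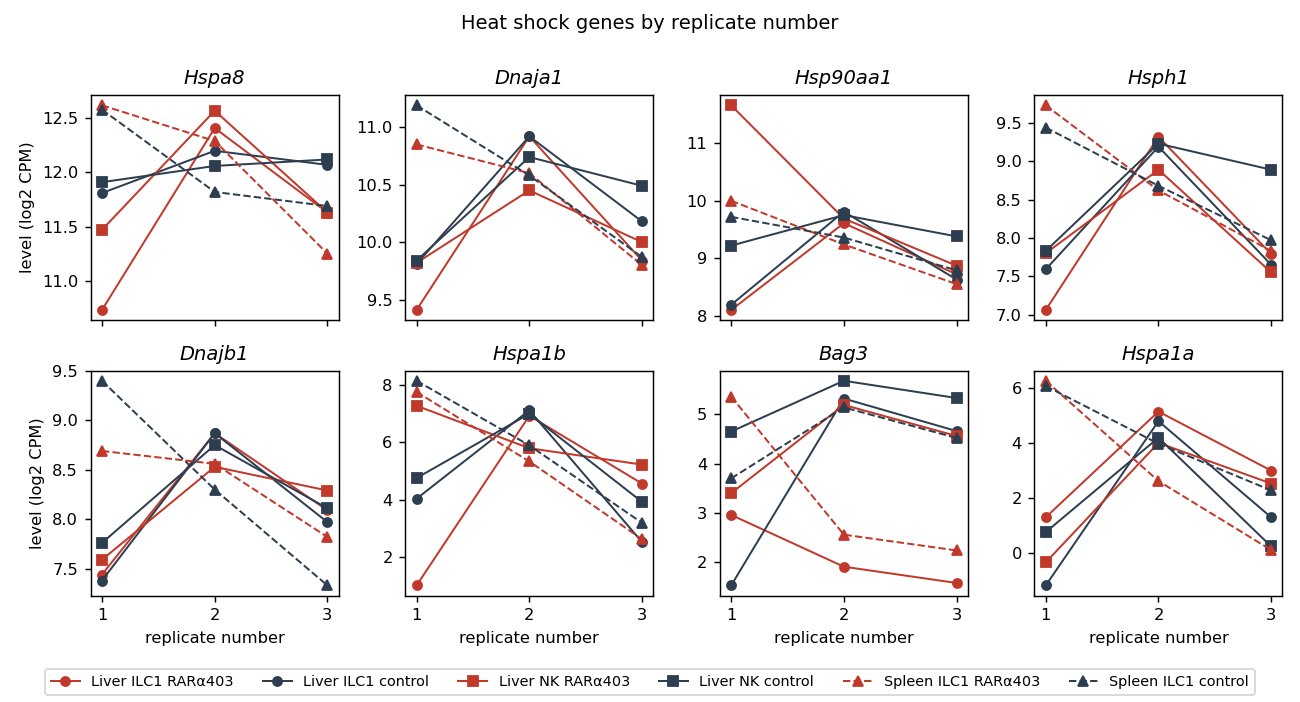
Log2 CPM of each heat shock member against library number in liver (4 groups) and spleen (2 groups), 1 line per group. Library 2 peaks in liver for most members and library 1 in spleen, in RARα403 and control libraries alike.

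The library number was tested as a term beside the group, separately in liver and in spleen, with edgeR's quasi-likelihood test over all genes. With all 18 libraries, 0 of 8 heat shock members passed a Benjamini-Hochberg adjusted p of 0.05 in liver or in spleen, where 0.0204% and 0.0068% of all genes passed. At an unadjusted p under 0.05 there were 6 of 8 in each organ, against 3.07% of all genes in liver and 2.43% in spleen, and no other tool was run for this term. Of the immediate early members, 2 of 32 in liver and 1 of 32 in spleen were under that p, and 0 passed the adjusted threshold. Hsph1 ranked 5 of 14714 in liver, with library 2 above library 1 by 1.59 (log2) and an edgeR adjusted p of 0.455. Without library 1 of the liver NK RARα403 group, Hsph1 (1.79, edgeR adjusted p = 0.0213) and Dnaja1 (1.15, edgeR adjusted p = 0.027) passed in liver, where 0.0483% of 16565 genes did. In spleen Hspa1a was lower in library 3 than in library 1 by a log2 difference of −5.24, and Hsph1 and Dnaja1 by −1.69 and −1.19, each with an edgeR adjusted p of 1.

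The difference between the spleen pattern and the liver pattern was itself tested. No gene passed in 18 or in 17 libraries with edgeR's test; 6 of 8 heat shock members had an unadjusted p under 0.05 in 18 libraries, against 2.05% of all genes. In 17 libraries Dnaja1 and Hsph1 had edgeR adjusted p-values of 0.0588. The members outside the 6 were Hsp90aa1 and Bag3, a co-chaperone of HSP70, and Bag3 ranked 6397 of 14714 genes in liver and 5080 in spleen by its p for library number. Among the 31 other chaperone and heat shock factor genes, 7 in liver and 3 in spleen had an unadjusted p under 0.05 in 18 libraries, and 0 passed the adjusted threshold. Cacybp, an HSP90-associated protein gene named after its values had been seen, had 9.64, 8.43 and 7.94 in RARα403 spleen ILC1s, against 9.60, 8.68 and 7.90 in control spleen ILC1s.

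The mean log2 CPM over the 8 heat shock members was 8.14 to 8.53 in library 2 of the 4 liver groups. It was 6.00 to 7.33 in library 1 and 6.87 to 7.33 in library 3 of those groups. In spleen it was 8.91 and 8.78 in library 1, 7.48 and 7.97 in library 2 and 6.28 and 6.95 in library 3, RARα403 before control in each pair. By genotype the list mean was 7.01 ± 1.07 in RARα403 and 7.18 ± 1.22 in control liver ILC1s, and 7.56 ± 1.32 in RARα403 and 7.90 ± 0.92 in control spleen ILC1s (SD, n = 3 each). In liver NK cells it was 7.60 ± 0.47 in the RARα403 group and 7.61 ± 0.72 in the control group (SD, n = 3 each). The immediate early mean overlapped between library numbers in liver, at 4.14 to 5.10, 4.77 to 5.39 and 4.45 to 5.13 in libraries 1, 2 and 3. In spleen it was 3.78, 4.50 and 4.88 in libraries 1, 2 and 3 of the RARα403 group, against 5.02, 5.07 and 5.56 in the control group, so that library 1 was lowest and library 3 highest in both genotypes, the reverse of the heat shock mean. By genotype it was 4.39 ± 0.56 in RARα403 and 5.22 ± 0.30 in control spleen ILC1s, without overlap (SD, n = 3 each). It was 4.79 ± 0.05 in RARα403 and 4.87 ± 0.36 in control liver ILC1s, and 4.57 ± 0.37 in RARα403 and 5.10 ± 0.31 in control liver NK cells, with overlap in both (SD, n = 3 each). The code in each library's description opens with 1 for library 1 and with 2 for libraries 2 and 3 in every group. Libraries of the same genotype and number share the opening and the closing digit of the code in all 3 populations, and what the digits stand for is not stated in the labels. The 4 liver libraries numbered 2 included the shallowest of all (3452279 counts) and the deepest (9038767 counts), and both had the highest list mean of their group. In spleen, library 1 had 19211 and 18870 genes with a count, against 15441 to 17246 in libraries 2 and 3. In liver ILC1s library 1 also had more, 17110 and 16853 genes, against 14307 to 15476 in libraries 2 and 3. There library 1 had the lowest heat shock mean of its group. In liver NK cells library 1 lay between libraries 2 and 3 in gene number. The part of gene number in the heat shock levels was not tested.

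**Figure D3:**
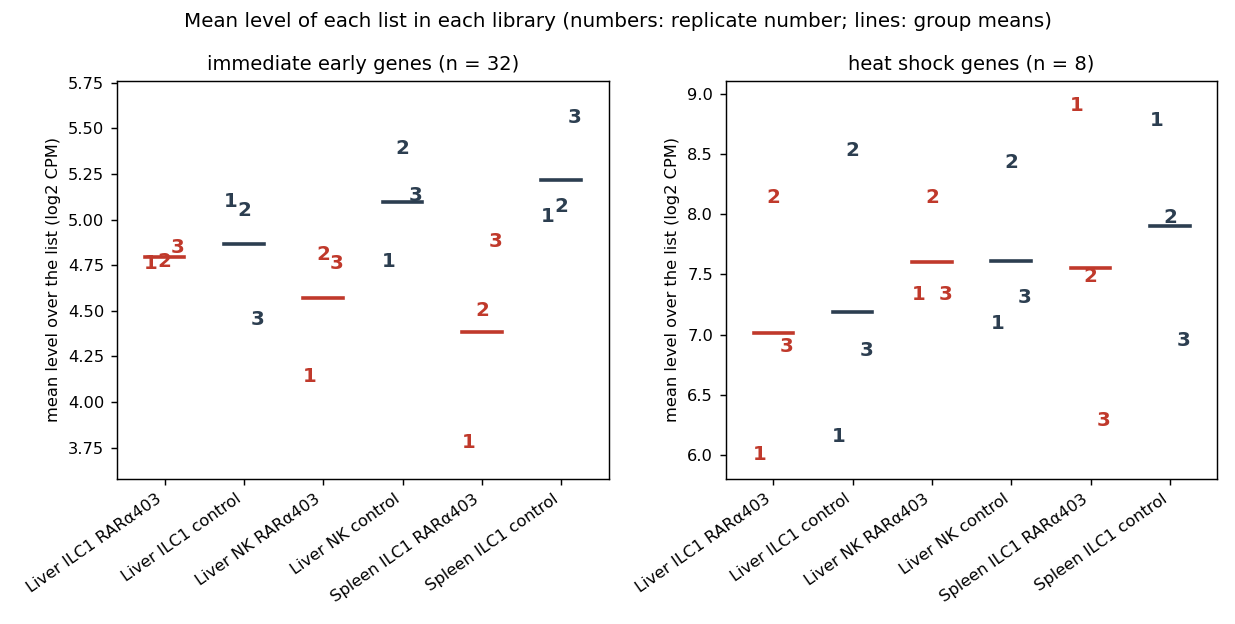
Mean log2 CPM over the 32 immediate early and the 8 heat shock members in each library (digits, the library number), with lines for group means, RARα403 left of control. Heat shock means lie between 6.00 and 8.91 over all libraries and overlap between the genotypes in every population, whereas the immediate early means of spleen ILC1s are 3.78 to 4.88 in RARα403 and 5.02 to 5.56 in control.

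RARα403 was next compared with control among the immediate early genes, where the values nearest to a difference lay in spleen ILC1s. Egr1, Gadd45b, Nr4a1 and Gadd45a were lower in every RARα403-labelled spleen library than in any control spleen library. None passed the adjusted test: 0 of 40 members and 0% of all genes were called by edgeR's quasi-likelihood test at a Benjamini-Hochberg adjusted p under 0.05. There were 3 of 40 members at an unadjusted p under 0.05, against 2.89% of all genes. DESeq2 called 2 members, Egr1 and Gadd45b, where it called 0.114% of genes, and limma-voom called 0. Over all genes, 4.87% were lower and 4.12% higher without overlap, against 4 and 0 of 40 members. Of the 32 immediate early members 25 had a value below 0, with a median log2 fold change of −0.47, against 7400 of 14714 genes below 0 and a median of 0.0.

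Egr1 encodes a zinc finger transcription factor downstream of MAP kinase signalling. It had 0, 22 and 7 counts in libraries 1, 2 and 3 of RARα403 spleen ILC1s, against 1778, 96 and 1139 counts in control spleen ILC1s. On the log2 CPM scale these were −1.70, 1.97 and 0.28 in the RARα403 group, against 7.75, 3.74 and 7.65 in the control group. The groups did not overlap, and the control library with the fewest counts was library 2. The log2 fold change was −6.57 ± 1.34 (SE, n = 3 each), which ranked 1 of 14714 genes by its p (edgeR quasi-likelihood, adjusted p = 1). The adjusted p was 0.492 in the 17 libraries, 3.84e-06 with DESeq2 and 0.864 with limma-voom. Leaving out each spleen library in turn gave −8.17 to −5.98, and libraries 2 and 3 alone gave −5.60 ± 1.40 (edgeR adjusted p = 1).

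Gadd45b, a stress-inducible regulator of p38 and JNK kinases, had 4.39, 4.13 and 3.94 in RARα403 spleen ILC1s, against 5.29, 5.51 and 6.27 in control spleen ILC1s. Every RARα403-labelled library lay under every control library. Its log2 fold change was −1.60 ± 0.45 (SE, n = 3 each; edgeR adjusted p = 1, rank 14 of 14714), and with libraries 2 and 3 only it was −1.93 ± 0.40. Nr4a1, the orphan nuclear receptor NUR77 that T cell receptor signalling induces, had −1.70, 3.56 and 4.63 in RARα403 spleen ILC1s, against 5.71, 5.93 and 7.24 in control spleen ILC1s. The groups did not overlap, and the lowest value was in RARα403-labelled library 1. Its log2 fold change was −2.87 ± 1.31 in all libraries (edgeR adjusted p = 1) and −2.56 in libraries 2 and 3. Gadd45a, the DNA damage-inducible relative of Gadd45b, had 2.70, 3.48 and 3.70 in the RARα403 group, against 4.49, 4.22 and 3.72 in the control group, a gap of little size between the nearest libraries.

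Other members of the same roles had overlapping values in spleen. Egr2, which like Egr1 follows receptor signalling, had −1.70, 3.96 and 4.94 in RARα403 spleen ILC1s, against 5.97, 4.16 and 5.48 in control spleen ILC1s. Jun, a subunit of AP-1, had 4.83, 3.86 and 2.76 in the RARα403 group, against 6.85, 4.07 and 5.15 in the control group. Fos, its partner, was low in both, with −1.12, −1.70 and 2.31 in the RARα403 group, against −1.23, 2.34 and 1.28 in the control group. Junb was abundant and level, with 6.99, 7.58 and 7.16 in the RARα403 group, against 7.24, 6.81 and 7.71 in the control group. Gadd45g, the third relative, had 5.04, 3.32 and 4.52 in the RARα403 group, against 6.74, 4.94 and 4.21 in the control group, and its log2 fold change of −1.26 ± 0.64 (SE, n = 3 each; edgeR adjusted p = 1) became −0.16 without control library 1 and −0.59 with libraries 2 and 3 only. With libraries 2 and 3 only, 4 of 40 members had an unadjusted p under 0.05 in spleen (Bag3, Gadd45b, Egr1 and Nr4a1), against 4.32% of all genes. With all libraries, all 3 NR4A genes and all 3 NF-κB inhibitor genes (Nfkbia, Nfkbid and Tnfaip3) had values below 0. So did 5 of the 7 AP-1 genes, none of them passing the test. With libraries 2 and 3 only, the NR4A and NF-κB inhibitor genes stayed below 0, Nfkbia at −0.01. Among the AP-1 genes Fosl2 (0.35), Jund (0.35) and Junb (0.05) then lay above 0.

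Cells of other types are measured beside these values. The summed CPM of 16 myeloid markers was 259, 263 and 394 in RARα403 spleen ILC1s, against 345, 504 and 850 in control spleen ILC1s, and 11 of the 12 that were tested had values below 0 (median log2 fold change −1.06). S100a8 and Clec4f were at 0 counts in most of the 6 spleen libraries. The summed CPM of 12 B cell markers was 590, 2010 and 1270 in RARα403 spleen ILC1s, against 380, 1460 and 7090 in control spleen ILC1s. Of these, 11 of 12 had values below 0 (median log2 fold change −1.49), with Cd79a at 0 counts in library 1 of both groups. The summed CPM of 9 endothelial markers was 91.7, 118 and 45.3 in RARα403 spleen ILC1s, against 84.4, 102 and 330 in control spleen ILC1s, and 5 of the 5 that were tested had values below 0 (median −2.84, 2 of them without overlap). Of T cell markers 10 of 14 had values below 0 (median −0.29), and of hepatocyte and erythroid markers 7 of 8 and 5 of 5 had values above 0. The myeloid, B cell and endothelial lists thus lay on the same side of 0 as the immediate early list, and their part in the Egr1 difference and in that list was not tested.

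**Figure D4:**
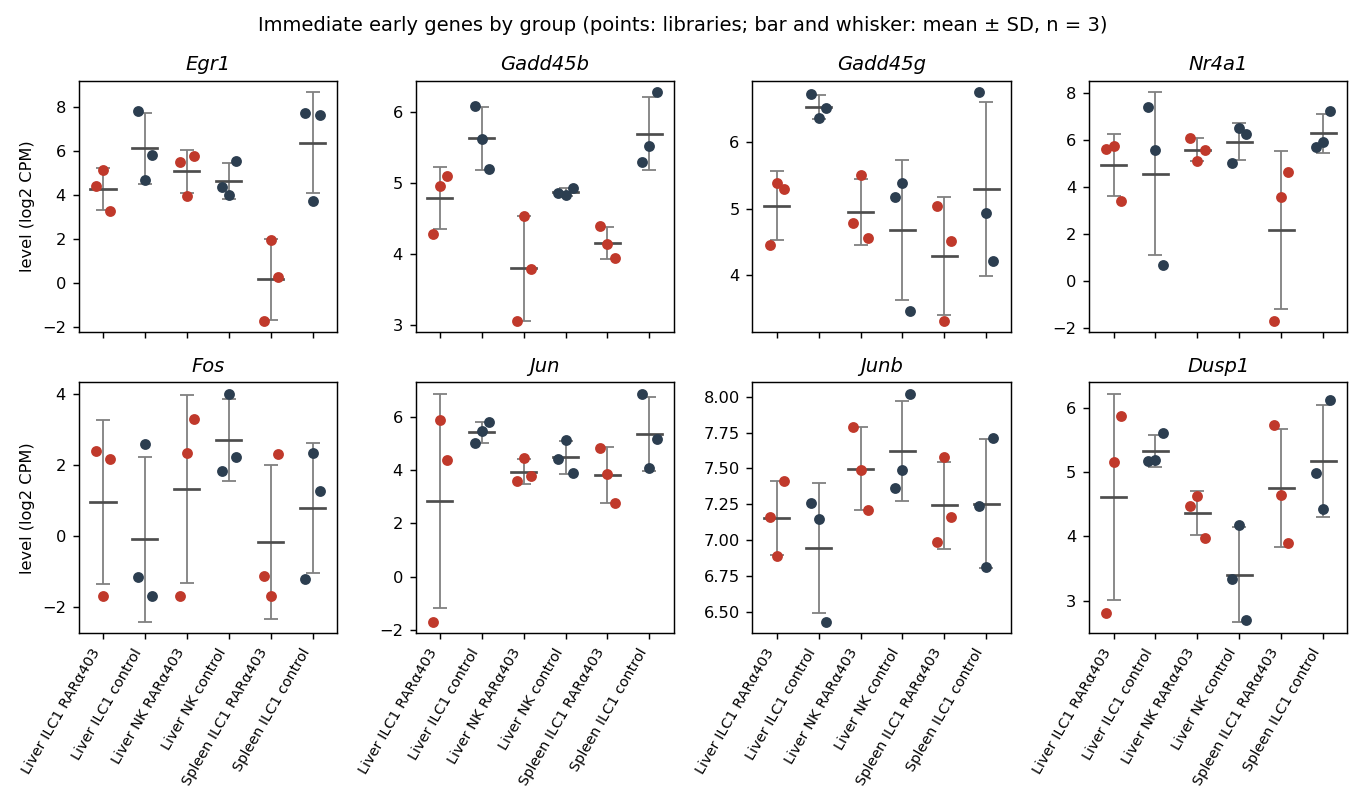
Log2 CPM of selected immediate early members in each library, RARα403 left of control in each population, with points for libraries, bars for means and whiskers for SD. Egr1 separates the spleen groups without overlap and overlaps in both liver populations.

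In liver ILC1s the immediate early list was nearly centred on 0, with 18 of 32 members below 0 and a median log2 fold change of −0.07, against 0.0 for all genes. Gadd45b and Gadd45g were lower without overlap, where 4.43% of all genes were lower and 5.08% higher without overlap. With edgeR 0 of 40 members and 0% of all genes passed; 2 members had an unadjusted p under 0.05, against 2.94% of all genes, and neither DESeq2, which called 0.203% of genes, nor limma-voom called a member. Gadd45b had 4.28, 4.96 and 5.10 in RARα403 liver ILC1s, against 6.08, 5.61 and 5.19 in control liver ILC1s. Gadd45g had 4.45, 5.38 and 5.30 in the RARα403 group, against 6.71, 6.35 and 6.51 in the control group. Both separated the groups, Gadd45b by little. Their log2 fold changes were −0.85 ± 0.44 and −1.44 ± 0.64 (SE, n = 3 each; edgeR adjusted p = 1 for both), and −0.38 and −1.10 with libraries 2 and 3 only. Egr1 had 4.40, 5.14 and 3.27 in the RARα403 group, against 7.84, 4.69 and 5.84 in the control group. These overlapped, and its log2 fold change of −2.25 ± 1.08 (SE, n = 3 each; edgeR adjusted p = 1) became −0.92 without control library 1 and −0.90 with libraries 2 and 3 only. With those libraries 1 of 40 members, Bag3, had an unadjusted p under 0.05 in liver ILC1s, against 3.77% of all genes.

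Nr4a1 in liver ILC1s had 5.63, 5.76 and 3.39 in the RARα403 group, against 7.39, 5.59 and 0.68 in the control group, overlapping widely. Dusp1, which encodes a phosphatase that switches off MAP kinases, had 2.81, 5.16 and 5.88 in the RARα403 group, against 5.17, 5.19 and 5.61 in the control group. Jun had −1.70, 5.87 and 4.39 in the RARα403 group, against 5.01, 5.48 and 5.79 in the control group, with 0 counts in RARα403-labelled library 1. Gadd45a had 3.95, 1.44 and 3.33 in the RARα403 group, against −1.17, 2.37 and 2.94 in the control group, a log2 fold change of 1.15 ± 1.24 (SE, n = 3 each; edgeR adjusted p = 1), which was −0.01 with libraries 2 and 3 only. The difference of the RARα403 effect between spleen and liver ILC1s was −4.32 ± 1.56 for Egr1 (SE; edgeR adjusted p = 1). Across the members, 0 of 40 passed that test with edgeR, 1 had an unadjusted p under 0.05, against 2.7% of all genes, and DESeq2 and limma-voom called 0.

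Bag3 was the heat shock member with the largest difference in both ILC1 populations once library 1 was left out. In liver ILC1s it had 2.96, 1.91 and 1.58 in the RARα403 group, against 1.53, 5.32 and 4.66 in the control group. In spleen ILC1s it had 5.36, 2.56 and 2.24 in the RARα403 group, against 3.70, 5.14 and 4.52 in the control group. In liver NK cells it had 3.40, 5.19 and 4.56 in the RARα403 group, against 4.65, 5.68 and 5.33 in the control group. Libraries 2 and 3 of the RARα403 group were thus low in both ILC1 populations, while RARα403-labelled library 1 was above control library 1 in both. With all libraries the log2 fold change was −2.29 ± 0.96 in liver ILC1s (SE, n = 3 each; edgeR adjusted p = 1). With libraries 2 and 3 only it was −3.39 ± 0.49 in liver ILC1s (SE, n = 2 each; edgeR adjusted p = 0.12), −2.53 ± 0.47 in spleen ILC1s (edgeR adjusted p = 0.574) and −0.62 ± 0.43 in liver NK cells (edgeR adjusted p = 0.89). Neither ILC1 value passed the adjusted threshold, which 0.00705% of 14192 genes did in each. Bag3 overlaps 2610306O10Rik on the same strand, so strand would not tell reads of the overlap apart.

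With all libraries the genotypes overlapped for 8 of 8 heat shock members, Bag3 included, in each of the 3 populations. In liver ILC1s the median log2 fold change of the 8 was −0.11 and in spleen ILC1s −0.11, against 0.0 for all genes, and in liver NK cells it was −0.06. Hspa8 had a log2 fold change of −0.29 ± 0.41 in liver ILC1s and Dnaja1 −0.16 ± 0.43 in spleen ILC1s (SE, n = 3 each; edgeR adjusted p = 1 for both). Hsp90aa1 in liver NK cells had 1.09 ± 0.62 (SE, n = 3 each; edgeR adjusted p = 0.597), which was −0.14 without library 1, and Hsph1 had −0.56 ± 0.65 (edgeR adjusted p = 0.85). Bag3 in spleen with all libraries had −0.47 ± 0.91 (SE, n = 3 each; edgeR adjusted p = 1), and −2.22 without RARα403-labelled library 1.

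In liver NK cells the comparison turned on the RARα403 library 1 that stood apart. With all libraries 0 of 40 members and 0% of all genes passed with edgeR; 4 members had an unadjusted p under 0.05, against 9.64% of all genes. DESeq2 called Ier5 alone among the members, where it called 1.33% of genes, and limma-voom called 0. Ier5, Gadd45b, Fosl2 and Ppp1r15a were lower in RARα403 without overlap, against 4.72% of all genes lower and 3.77% higher. Of 32 immediate early members 19 were below 0, with a median log2 fold change of −0.34, or −0.31 without library 1, against 0.0 for all genes. Ier5, an immediate early regulator of the heat shock response, had 5.51, 6.23 and 6.05 in the RARα403 group, against 6.64, 6.89 and 6.84 in the control group. Its spread was small and the groups were apart, with a log2 fold change of −0.84 ± 0.29 (SE, n = 3 each; edgeR adjusted p = 0.428; DESeq2 adjusted p = 0.0445) and −0.67 without library 1. Gadd45b had 3.06, 4.53 and 3.79 in the RARα403 group, against 4.86, 4.82 and 4.93 in the control group, a log2 fold change of −0.96 ± 0.44 (SE, n = 3 each; edgeR adjusted p = 0.511). Fosl2, an AP-1 subunit gene, had 2.79, 3.78 and 4.46 in the RARα403 group, against 4.65, 5.04 and 5.15 in the control group.

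With libraries 2 and 3 only, 6 of 40 members had an unadjusted p under 0.05 in liver NK cells and all 6 were lower in RARα403, against 5.68% of all genes in either direction. They were Dusp5 (−0.75), Tnfaip3 (−1.28), Ier5 (−0.74), Ppp1r15a (−0.83), Nr4a3 (−2.21) and Nfkbid (−0.67, all log2 fold changes). None passed the adjusted threshold, with edgeR adjusted p-values of 0.817 to 0.879 (n = 2 each).

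The myeloid marker sum was 196 to 304 CPM in RARα403 NK cells, against 326 to 390 CPM in control NK cells, with Lyz2, Csf1r, Adgre1, S100a8, S100a9 and Cd14 at 0 counts in all 6 libraries. In liver ILC1s it was 286 to 427 CPM in the RARα403 group, against 426 to 745 CPM in the control group. Among the NK groups, B cell markers had values above 0 for 8 of 12, endothelial markers for 4 of 5 and hepatocyte markers for 6 of 8. Their median log2 fold changes were 0.90, 2.73 and 3.44. Without RARα403 NK library 1 these medians were 0.56, −0.03 and 0.35. The part of these markers in the members' differences was not tested.

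Several members were far from their group in RARα403 NK library 1. Ppp1r15a, which encodes the GADD34 phosphatase subunit, had 0 counts there, and 4.49 and 5.02 in libraries 2 and 3, against 5.27, 5.63 and 5.53 in control NK cells. Zfp36l1, an mRNA decay factor gene, had 9.12, 4.97 and 5.49 in the RARα403 group, against 5.36, 5.51 and 5.12 in the control group. Its log2 fold change of 2.39 ± 0.75 (SE, n = 3 each; edgeR adjusted p = 0.428) was −0.11 without library 1. Myc, a growth regulator gene, had 9.11, 7.35 and 7.87 in the RARα403 group, against 6.31, 7.43 and 7.39 in the control group, and its log2 fold change of 1.18 ± 0.48 (SE, n = 3 each; edgeR adjusted p = 0.47) was 0.49 without library 1. Dusp2, a phosphatase gene of MAP kinases, had 1.90, 8.21 and 7.20 in the RARα403 group, against 7.18, 6.93 and 8.04 in the control group. Egr1 in NK cells had 5.52, 3.96 and 5.77 in the RARα403 group, against 4.39, 4.01 and 5.56 in the control group, with full overlap. The difference of the RARα403 effect between liver ILC1s and NK cells was called for 0 of 40 members by edgeR, by DESeq2 and by limma-voom, with 3 at an unadjusted p under 0.05, against 6.2% of all genes. The member with the smallest p was Zfp36l1 at −2.72 ± 1.03 (SE; edgeR adjusted p = 0.798), which was −0.22 without library 1.

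The AP-1 genes and Nr4a1 had these levels in the populations not yet given. Fos had 2.40, −1.70 and 2.18 in RARα403 liver ILC1s, against −1.17, 2.59 and −1.70 in control liver ILC1s. Fos in liver NK cells had −1.70, 2.35 and 3.32 in the RARα403 group, against 1.84, 4.02 and 2.24 in the control group. Fos was at or under 3 counts in some library of every group except control NK cells, and the genotypes overlapped. Jun in liver NK cells had 3.59, 4.46 and 3.77 in the RARα403 group, against 4.42, 5.12 and 3.89 in the control group. Junb had 7.16, 6.89 and 7.41 in RARα403 liver ILC1s and 7.79, 7.49 and 7.21 in RARα403 liver NK cells, overlapping with the control values given below. Jun and Junb both encode AP-1 subunits, and Junb was the steadier over all libraries. Nr4a1 in liver NK cells had 6.07, 5.11 and 5.57 in the RARα403 group, against 5.04, 6.50 and 6.25 in the control group. Dusp1 had 4.48, 4.63 and 3.98 in RARα403 liver NK cells, and in spleen 5.73, 4.64 and 3.90 in RARα403 ILC1s, against 4.98, 4.42 and 6.13 in control ILC1s. Neither separated the genotypes.

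**Figure D5:**
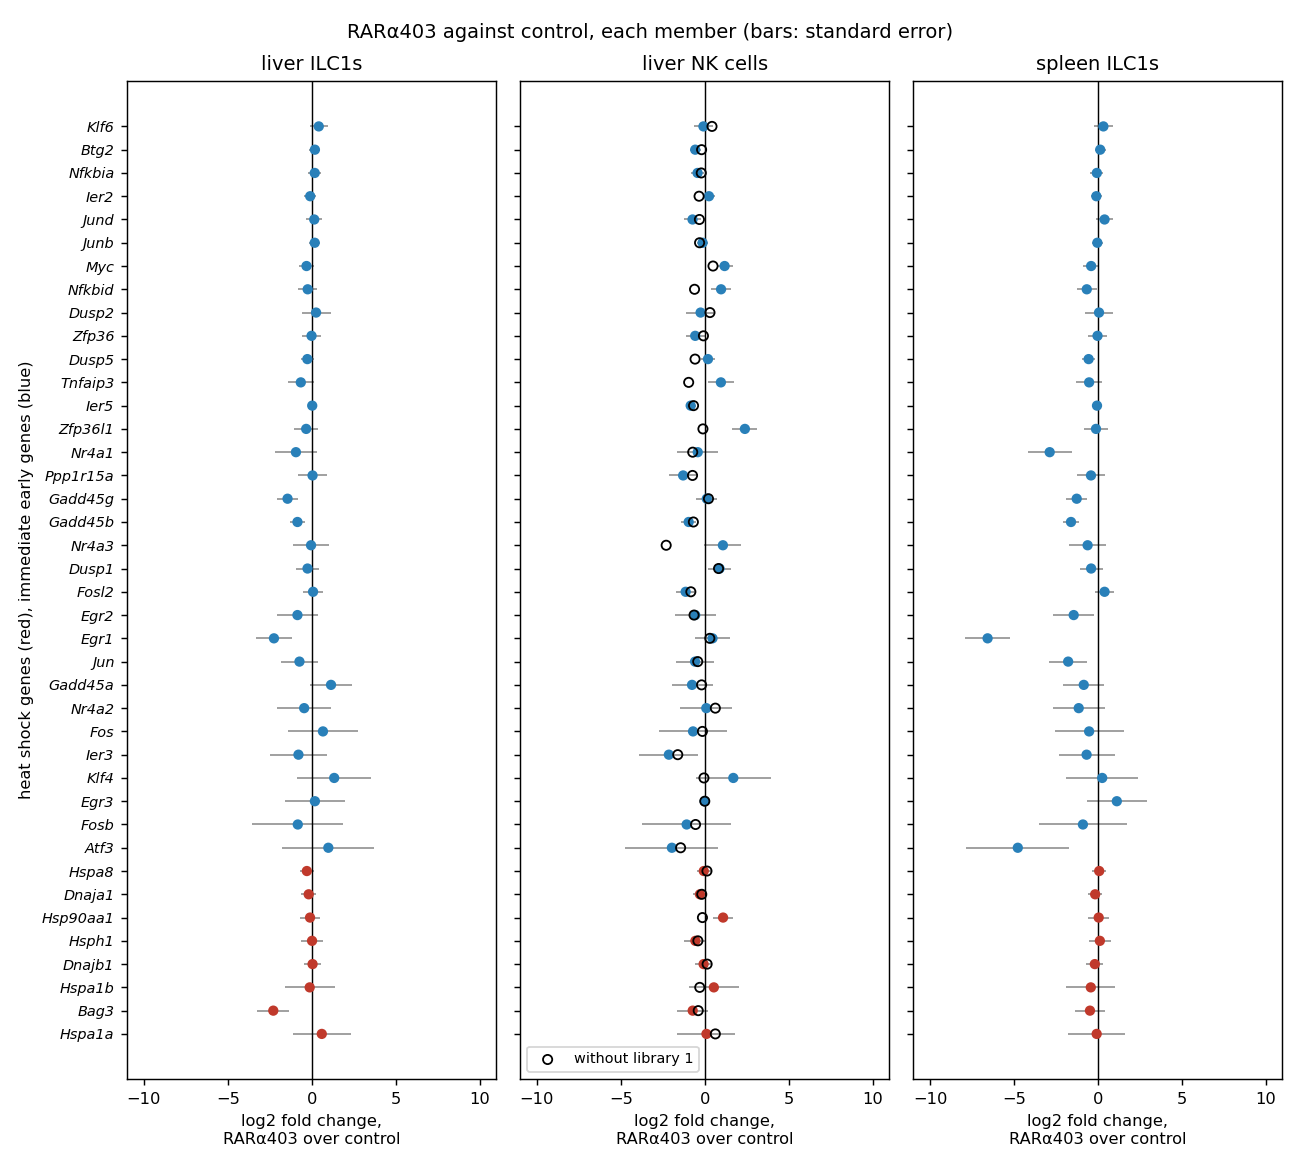
Log2 fold change with its SE for each member in the RARα403 against control comparisons of the 3 populations. Egr1 in spleen lies lowest at −6.57, and most immediate early values in spleen lie below 0.

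Control liver ILC1s were compared with control liver NK cells, and the RARα403 groups in the same way. In controls 0 of 40 members passed with edgeR, where 0.605% of all genes did; 3 members had an unadjusted p under 0.05, against 7.91% of all genes, and DESeq2, with 3.14% of genes called, called 0 members and limma-voom, with 3.26%, called 1, Dusp5. Without overlap 4 members were higher in ILC1s, against 8.71% of all genes, and 5 were lower, against 8.2%. The median log2 fold change was −0.18 for the immediate early list, −0.07 for the heat shock list and 0.03 for all genes. Higher were Gadd45b, Gadd45g, Zfp36l1 and Dusp1, and lower were Dusp5, Junb, Btg2, Nr4a2 and Zfp36.

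Dusp1 had 5.17, 5.19 and 5.61 in control ILC1s, against 3.34, 4.17 and 2.70 in control NK cells, a log2 fold change of 1.83 ± 0.71 (SE, n = 3 each; edgeR adjusted p = 0.479). Gadd45g had 6.71, 6.35 and 6.51 in control ILC1s, against 5.17, 5.38 and 3.47 in control NK cells, a log2 fold change of 1.65 ± 0.65 (edgeR adjusted p = 0.504). Dusp5, a dual-specificity phosphatase gene, had 7.14, 6.73 and 6.44 in control ILC1s, against 7.23, 7.77 and 7.81 in control NK cells. The groups did not overlap, and the log2 fold change was −0.83 ± 0.39 (SE, n = 3 each; edgeR adjusted p = 0.635). Junb had 7.26, 7.15 and 6.43 in control ILC1s, against 7.36, 7.49 and 8.02 in control NK cells, a log2 fold change of −0.66 (edgeR adjusted p = 0.643). Nr4a2, an orphan nuclear receptor gene, had −0.48, 3.06 and −0.43 in control ILC1s, against 3.34, 4.77 and 4.97 in control NK cells. Btg2 had 8.39, 8.45 and 8.57 in control ILC1s, against 8.98, 9.11 and 8.88 in control NK cells, and these groups did not overlap either. Among the heat shock members Bag3 had −0.79 ± 0.91 and Hsp90aa1 −0.42 ± 0.61 (log2 fold change ± SE, n = 3 each; edgeR adjusted p = 1 for both). The T cell marker sum was 1860 to 2160 CPM in control ILC1s, against 955 to 1000 CPM in control NK cells, and edgeR called Trbc2 and Cd3e higher. The B cell sum was 544 to 798 CPM in control ILC1s, against 220 to 246 CPM in control NK cells, and the myeloid sum 426 to 745 CPM, against 326 to 390 CPM. Myeloid markers had values above 0 for 10 of 12 (median log2 fold change 4.23), endothelial markers for 5 of 5 (3.63, with Eng called), hepatocyte markers for 7 of 8 (6.04) and erythroid markers for 5 of 5 (6.30). In RARα403 mice T cell markers lay above 0 for 11 of 14, myeloid markers for 11 of 12 and B cell markers for 7 of 12. The part of these cell types in the values was not tested.

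Egr3 had a count in no NK library. It had 17, 8 and 2 counts in RARα403 liver ILC1s and 26, 0 and 0 in control liver ILC1s, so that most of its control signal lay in library 1. In spleen it had 11, 13 and 22 counts in RARα403 ILC1s, against 15, 5 and 3 in control ILC1s. No fitted fold is given against a group at 0. In the RARα403 groups, 0 of 40 members passed with edgeR, where 0.401% of all genes did; 8 had an unadjusted p under 0.05, against 12.3% of all genes, and DESeq2 called Dusp5, where it called 4.25% of genes, and limma-voom, with 1.47% of genes, called 0. Ier5, Egr2, Egr3 and Ppp1r15a were higher in RARα403 ILC1s without overlap, against 7.58% of all genes, and Dusp5, Myc and Bag3 were lower, against 4.71%. Egr3 had 2 counts, under the floor of 3 counts, in library 3 of those ILC1s. Ppp1r15a stood at 5.15 to 5.50 in those ILC1s, against −1.70 (0 counts, in NK library 1) to 5.02 in RARα403 NK cells. Dusp5 had 6.61, 6.62 and 6.36 in RARα403 ILC1s, against 8.67, 7.05 and 7.07 in RARα403 NK cells. Its log2 fold change of −1.28 ± 0.40 (SE, n = 3 each; edgeR adjusted p = 0.22) became −0.51 without NK library 1. Bag3 had a log2 fold change of −2.36 ± 0.96 (SE, n = 3 each; edgeR adjusted p = 0.331), and −2.70 without that library. Myc at −1.41, Zfp36l1 at −1.77 ± 0.74 and Hsp90aa1 at −1.62 ± 0.63 (edgeR adjusted p = 0.248, 0.342 and 0.305) were −0.72, 0.73 and −0.38 without it. Nfkbid at −1.42 ± 0.59 (SE, n = 3 each; edgeR adjusted p = 0.342) was 0.17 without it.

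Spleen ILC1s were compared with liver ILC1s within each genotype. The heat shock list lay higher in spleen for 8 of 8 members in RARα403 and in control ILC1s, against 7541 and 7636 of 14714 genes. Its median log2 fold changes were 0.50 and 0.34, against 0.02 and 0.03 for all genes. The list mean of library 1 was 8.91 and 8.78 in spleen, against 6.00 and 6.15 in liver, RARα403 before control. In library 2 it was lower in spleen, at 7.48 and 7.97, against 8.14 and 8.53. Library 3 had 6.28 and 6.95 in spleen, against 6.90 and 6.87 in liver. The higher spleen level thus rested on library 1. The groups overlapped for all 8 members in both genotypes, and the libraries of 1 number differed by organ as described above. B cell markers lay higher in spleen for 11 of 12 in RARα403 and 12 of 12 in control ILC1s, with median log2 fold changes of 4.24 and 4.44. Endothelial markers did for 3 of 5 and 5 of 5, and hepatocyte markers for 8 of 8 and 2 of 8. Their part in the heat shock values was not tested. With edgeR 0 of 40 members and 0% of all genes passed in either genotype, and DESeq2 called 0 members in both. At an unadjusted p under 0.05 there was 1 member in RARα403 ILC1s, against 2.85% of all genes, and 0 in control ILC1s, against 3.18%. Egr1 and Egr2 were lower in RARα403 spleen ILC1s without overlap with RARα403 liver ILC1s, where 4.72% of all genes were. For Egr1 the log2 fold change was −3.86 ± 1.20 (SE, n = 3 each; edgeR adjusted p = 1), with the values given above. Egr2 had −1.89 ± 1.26, Gadd45b −0.67 ± 0.44, Bag3 1.89 ± 0.95 and Hspa8 0.42 ± 0.41 (log2 fold change ± SE, n = 3 each; edgeR adjusted p = 1 for each), and Atf3, an ATF family transcription factor gene, had 0 counts in all 3 RARα403 spleen libraries, against 36, 0 and 0 in RARα403 liver ILC1s. Nr4a2 and Gadd45a were higher in control spleen than in control liver ILC1s without overlap, against 4.82% of all genes. Gadd45a had 4.49, 4.22 and 3.72 in control spleen ILC1s, against −1.17, 2.37 and 2.94 in control liver ILC1s, a log2 fold change of 2.11 ± 1.27 (SE, n = 3 each; edgeR adjusted p = 1). Nr4a2 had 3.75, 3.73 and 4.42 in control spleen ILC1s, with a log2 fold change of 2.44 ± 1.65 over the control liver values given above. Gadd45g at −0.83 ± 0.63, Egr2 at −1.29 ± 1.23, Hspa1a at 1.56 ± 1.77 and Hspa1b at 1.14 ± 1.49 followed (edgeR adjusted p = 1 for each), and Hspa1a was at −0.55 with libraries 2 and 3 only.

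Libraries whose description code opens with 1 were compared with those that open with 2, with the group held in the fit. With edgeR 0 of 40 members passed, where 0.156% of all genes did; 4 had an unadjusted p under 0.05, against 10.7% of all genes, and DESeq2 called Nfkbia, where it called 3.08% of genes. Nfkbia had 7.88, 8.08, 7.12, 7.37, 8.10 and 8.33 in library 1 of the 6 groups, taken as liver ILC1s, then NK cells, then spleen ILC1s, with RARα403 before control in each. It was the lowest of its group in 4 of 6 groups, and the log2 fold change of code 1 over code 2 was −0.69 ± 0.17 (SE; edgeR adjusted p = 0.165; DESeq2 adjusted p = 0.014). Zfp36l1 at 1.00 ± 0.41, Nr4a2 at −2.45 ± 1.01 and Dusp2 at −1.18 ± 0.52 came next (edgeR adjusted p = 0.397, 0.402 and 0.436), and without the liver NK library that stood apart they were 0.35, −2.05 and −0.77. Hsp90aa1 had 0.38 ± 0.40 and Hspa1b 0.95 ± 1.17 (edgeR adjusted p = 0.779 and 0.813), and Hsp90aa1 was at −0.10 without that library.

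Genes around these members, taken from lists chosen with earlier results of these data known, were counted in the same fits. Of 21 upstream MAP kinase, SRF and CREB genes, 28 other immediate early genes, 15 NF-κB genes, 31 other chaperone genes and 14 endoplasmic reticulum and integrated stress genes, 0 rose and 0 fell past the edgeR adjusted threshold in any comparison with all libraries. Klf2, a zinc finger gene that keeps lymphocytes recirculating, had a log2 fold change of −2.71 in control liver ILC1s over control NK cells (edgeR adjusted p = 0.149). In 17 libraries Klf2 at −2.72 (edgeR adjusted p = 0.0223) and Tsc22d3 at −1.37 (edgeR adjusted p = 0.039) passed there, where 1.75% of genes did, and DESeq2 called Klf2. Rgs1, a regulator of G protein signalling, had 2.12 in that comparison (edgeR adjusted p = 0.307). DESeq2 called Rgs1 and Nfkb1, an NF-κB subunit gene, between RARα403 liver ILC1s and NK cells, and Nfkbie, an NF-κB inhibitor gene, by description code. Between the genotypes, Tsc22d3, a glucocorticoid-induced gene, had 1.48 and Sgk1, a kinase gene, 2.55 in liver ILC1s (edgeR adjusted p = 1 for both). Pim1, a cytokine-induced kinase gene, had −0.82 in spleen ILC1s (edgeR adjusted p = 1).

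The remaining members are accounted for by their ranges over the 18 libraries, on the log2 CPM scale. Nr4a3, an orphan nuclear receptor gene, lay between 2.11 and 7.91, Klf6, a zinc finger factor gene, between 5.49 and 9.30, and Jund, an AP-1 subunit gene, between 5.17 and 8.07. Tnfaip3, whose product A20 ends NF-κB signalling, lay between 4.55 and 9.19, Nfkbid, an atypical IκB gene, between 6.09 and 9.49, and Zfp36, an mRNA decay factor gene, between 4.14 and 7.79. Library 1 of the liver NK RARα403 group was the highest of all 18 for Nr4a3, Tnfaip3 and Nfkbid and the lowest for Klf6, Jund and Zfp36. Ier2 lay between 7 and 8.69, with that library highest too. Ier3, Klf4, Fosb and Atf3 were at or under 3.25 in every library, with Ier3 at 0 counts in 3 libraries and Klf4 in 5.

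The members called depended on the fit. Without a filter on low counts 32798 genes entered. In that fit 0 members were called between the genotypes in liver ILC1s, against 0.131% of genes. It called Zfp36l1 in liver NK cells, against 1.59% of genes, and in spleen ILC1s Egr1 and Nr4a1, against 0.0976%. Between liver ILC1s and NK cells it called Zfp36l1, Hsp90aa1, Myc and Nfkbid in RARα403 mice, against 2.42% of genes, and 0 members in control mice, against 1.08%. Between spleen and liver ILC1s it called Egr1 in RARα403 mice, against 0.125%, and 0 members in control mice, against 0.238%. Zfp36l1 (against 0.817% of genes) and Egr1 (against 0.125%) were called in the differences of RARα403 effects, and Dusp2 by description code (against 1.13%). In the 17 libraries without liver NK RARα403 library 1, edgeR called 0 members in all 10 comparisons. It called 0.00604% of genes between the genotypes in liver NK cells, 0.495% and 1.75% between liver ILC1s and NK cells of RARα403 and control mice, and 0.223% by code. With libraries 2 and 3 only, Bag3 was called between RARα403 liver ILC1s and NK cells, against 1.14% of genes, and Dusp5 between those of control mice, against 1.56%.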

How the data were processed

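Bulk RNA of 200 sorted cells per library was measured in 18 libraries. Read counts per gene were deposited by the authors as 1 table, made with fastp 0.23.0, HISAT2 2.1.0 and featureCounts of Subread 1.6.5, per the submitters' processing notes. The annotation release, any use of strand and the handling of multiply mapped reads were not given in the sources used here. Gene lengths for RPKM and promoter windows come from GRCm38 annotation. The 849 rows without a symbol held 0.0544% of counts.

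Counts were tested with edgeR 4.0.16 (quasi-likelihood F test, TMM, filterByExpr with a minimum of 10, 1 fit of all 18 libraries by group) in R 4.3.3, with Benjamini-Hochberg adjustment over all 14714 genes tested and a threshold of 0.05. DESeq2 1.42.0, limma-voom 3.58.1 with quality weights, other scaling, filters, blocks and libraries left out were alternatives. The steps were tested on simulated data. Log2 CPM used a prior count of 2. Members, lists and alternatives were chosen with earlier results of these data known; the test of library number was added after its values were seen. Values in every library are printed for a fixed set of members, and in each comparison up to 4 immediate early and 2 heat shock members of smallest p are given in full; other genes named were chosen after their values were seen. The labels do not say that a library number marks a shared mouse or day, and same-numbered libraries did not all deviate together, so no block entered the main tests. Within a genotype, however, each library correlated best with its own number in the other population. Tests between cell types or organs, and of library number, may therefore ignore a pairing. Some genes of the pathway and marker lists are not reported here.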

Additional observations from a re-analysis of the deposited data

How the results depend on the processing

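Of the members' results recomputed under each alternative, 887 kept their direction and side of the threshold, 19 passed a threshold that they had missed and 32 changed sign. All member counts called by edgeR were 0 with all libraries. DESeq2 called 1 member in liver NK cells (Ier5), 2 in spleen ILC1s (Egr1, Gadd45b), 1 in RARα403 liver ILC1s against NK cells (Dusp5) and 1 by description code (Nfkbia). limma-voom called 1 in control liver ILC1s against NK cells (Dusp5). Without a filter on low counts, RARα403 against control gave 1 in liver NK cells (Zfp36l1) and 2 in spleen (Egr1, Nr4a1). In that setting there were 4 in RARα403 liver ILC1s against NK cells (Zfp36l1, Hsp90aa1, Myc, Nfkbid), 1 in RARα403 spleen against liver (Egr1), 1 in each difference of RARα403 effects (Zfp36l1 between cell types, Egr1 between organs) and 1 by code (Dusp2). With replicates 2 and 3 only, there was 1 in liver ILC1s against NK cells of each genotype (Bag3 in RARα403, Dusp5 in control). For library number in liver, 2 members were called without liver NK RARα403 replicate 1, and leaving out each library in turn gave 0 to 2. The cause of these changes was not tested, except that fewer libraries or other genes enter by construction.

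These signs changed among the members recomputed in each comparison (log2 fold changes). In liver ILC1s Gadd45a was −0.01 with replicates 2 and 3 only, and Hspa8 was 0.04 without RARα403-labelled library 1 (−0.78 to 0.04 with each library left out). In liver NK cells Zfp36l1 was −0.08 with limma-voom, −0.10 with replicates 2 and 3, −0.11 without RARα403 library 1 and −0.02 with a replicate block within organ added (−0.11 to 2.92 with each library left out). Hsp90aa1 there was −0.18, −0.26, −0.14 and −0.48 in the same settings (−0.14 to 1.52). In spleen Dnaja1 was 0.09 without RARα403 library 3 and 0.23 without control library 1 (−0.43 to 0.23). In RARα403 liver ILC1s against NK cells Zfp36l1 was 0.65 with limma-voom, 0.60 with replicates 2 and 3, 0.73 without RARα403 NK library 1 and 0.62 with the block added (−2.30 to 0.73), and Nfkbid 0.10, 0.23, 0.17 and 0.27 (−1.85 to 0.17). In control spleen against liver Egr2 was 0.77 with limma-voom, 0.32 with replicates 2 and 3 and 0.73 without control liver library 1 (−1.87 to 0.73). With replicates 2 and 3, Hspa1a there was −0.55, Hspa1b −1.05 (−0.64 to 3.42 with each library left out) and Hspa8 in RARα403 spleen against liver −0.19. For the difference of effects between ILC1s and NK cells, Hsp90aa1 was 0.15 with replicates 2 and 3, 0.05 without RARα403 NK library 1 and 0.42 with the block added (−1.69 to 0.05). By code, Hsp90aa1 was −0.22 with limma-voom and −0.10 without that library (−0.10 to 0.65).

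Same-numbered libraries deviated together with correlations of −0.033 to 0.245, and in no comparison was every pair over 0.1, so the numbers were not taken to pair them, although heat shock levels followed library number within each organ. In RARα403 and control liver ILC1s against NK cells, and in spleen against liver, every library correlated best with its own number, a hint from the data and not the design. With a replicate block, 0 members were called in every comparison it was fitted in. With a replicate block within organ, Bag3 was −1.78 in liver ILC1s and −1.29 in spleen ILC1s. With 3 libraries a group and a common biological coefficient of variation of 0.862, only large differences could pass, and members near 3 counts have no reliable fold. In simulated data edgeR recovered 14% of 4-fold and 42% of 16-fold changes between the genotypes in liver ILC1s. It recovered 15% and 47% between control liver ILC1s and NK cells, and 57% and 60% by code. For the difference of RARα403 effects between liver ILC1s and NK cells it recovered 0% and 29%. Large differences could thus be missed too.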
